A study of Homo sapiens with 5 samples.

Results

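Gene expression was compared between 2 sequencing libraries, 1 from a tumour grown on food without methionine, tryptophan and niacin, called the combined omission here, and 1 from a tumour grown on normal food. The genes compared were those with a mean of at least 10 counts over both libraries, which held for 9654 of the 26364 genes listed. The other 16710 genes were too thinly counted and were left out. The tumours came from HT-29, an established human colon cancer line, whose cells were grown in complete medium and then placed under the skin of the back of female NOD SCID mice. These mice lack T and B cells, so the tumours grew without adaptive immunity in either diet group. The mice were 5 weeks old when obtained, and each diet was given for 2 weeks. The series holds 3 further libraries, 2 from methionine-free food and 1 from food without tryptophan and niacin, which are used here to place the levels. Each diet compared has 1 library, so no difference below has a replicate check, no p-value is given, and every interval covers counting error only, not the spread between tumours.

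Methionine is an essential amino acid that feeds protein synthesis and, as S-adenosylmethionine, the methylation of DNA, histones and small molecules. Tryptophan, also essential, and niacin both feed the synthesis of NAD, and nicotinamide from that pathway is methylated at the expense of S-adenosylmethionine, which joins these nutrients to the methionine cycle. Cells that lack an amino acid are known to slow mTORC1 signalling and to raise the translation of ATF4, a transcription factor that induces amino acid synthesis and transport genes. The comparison asks how a tumour differed when the food lacked dietary precursors of both the methionine and the NAD routes.

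Depth was low and unequal. The combined-omission library held 433807 counts and the normal library 1087985, so that 1 count was worth 2.27 CPM (counts scaled to a common library size) in the former and 0.909 CPM in the latter. The floor of 3 counts, the most that a count of 0 allows, was 6.81 and 2.73 CPM. The epithelial genes KRT8 and EPCAM were well counted in both libraries. Of 32 colonocyte genes listed, 10 did not reach the minimum count. In the combined omission 8 of the 32 were at 0 counts, and on normal food 6 were. The keratin gene KRT8 stood at 6430.3 CPM in the combined omission and 6716 CPM on normal food, and the adhesion gene EPCAM at 533 and 584 CPM. Markers of other cells were thin in both libraries apart from LYZ, a myeloid marker that is also listed among the mucin and goblet cell genes, with 876 counts in the combined omission and 2572 on normal food. Summed myeloid markers were 2022 and 2401 CPM, nearly all of it LYZ, and the other measured one, CD68, had 14 and 61 counts. Of 14 lymphoid markers 14 were at 0 counts in the combined omission and 13 on normal food, 9 of 9 erythroid markers were at 0 in both, and 13 of 15 fibroblast markers were at 0 in the combined omission. Summed fibroblast markers were 36.3 and 35.5 CPM, endothelial markers 81.7 and 61.8 CPM, and skeletal muscle markers 193 and 174 CPM in the combined omission and on normal food. Of these human marker genes COL1A1, a fibroblast collagen, had 7 and 11 counts. In bulk tumour RNA, fewer cells of a type and less RNA per cell cannot be told apart, which holds for every difference below. The titles of these 2 libraries share a style that the other 3 do not have, and the labels do not say whether it marks a batch.

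The 2 tumours were close to each other across most genes. The median log2 difference in CPM (combined omission minus normal food, 2 counts added in proportion to library size) was −0.01, with quartiles of −0.27 and 0.24, and 79.1% of genes lay within 0.5 of 0. A gene was called higher or lower by a size rule: at least 2-fold on that scale, with a 95% exact interval of the scaled count ratio that excludes 1. By this rule 66 genes were higher (0.684%) and 103 lower (1.07%). At these shares, 0 calls in a short list says little about that list. Counting error alone, with every gene at equal level in both tumours, would put 43.3 genes higher and 67.2 lower, or 110 in all against the 169 found. Relative to counting error the excess was largest among well-counted genes, while most of it in number lay among thinly counted ones. From 50 to 100 mean counts 9 of 2107 genes were called against 1.41 from counting error, and at 100 or more 2 of 1697, HSPH1 and AMIGO2, against 0.0077. From 10 to 20 mean counts 97 of 2220 were called against 62.7, and from 20 to 50 61 of 3630 against 46.3. By the interval alone, with no minimum fold, 391 genes were above 1 (4.05%) and 389 below (4.03%). Intervals narrow as counts rise, so well-counted genes exclude 1 at smaller ratios. The shares of all genes set beside the lists below were not matched for count.

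**Figure D1:**
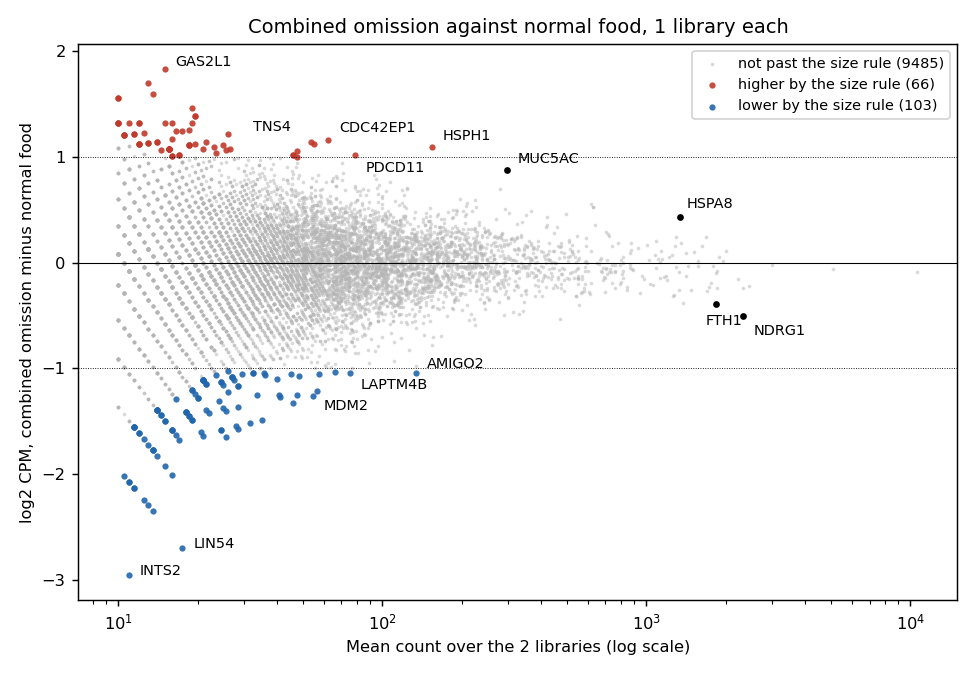
Log2 difference in CPM (combined omission minus normal food) of 9654 genes against their mean count over the 2 libraries, on a log axis. Red and blue points are the 66 genes higher and 103 lower by the size rule, grey points the rest, black points 4 well-counted genes named in the text, and dotted lines mark 2-fold. The scatter narrows as the count rises, and HSPH1 and AMIGO2 are the called genes with a mean of 100 counts or more.

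The same 2 measures between both methionine-free libraries, which share a diet, serve as a yardstick for library-to-library spread. Of 8864 genes with the same mean count, 575 lay beyond the size rule in that pair (6.49%), and 64.9% lay within 0.5 of 0. The normal and combined-omission tumours, on different diets, were thus nearer to each other than the pair on the same diet, by both measures. The labels do not say whether that pair came from separate mice. By the interval alone, 11.7% of genes in that pair lay above 1 and 10.7% below, library 2 over library 1. The combined-omission library was often the extreme of all 5: it was highest in 52 of the 66 genes called higher (78.8%) and lowest in 89 of the 103 called lower (86.4%), against 22% and 22.2% of all genes. The normal library was lowest in 34 of the 66 and highest in 49 of the 103. Choosing genes by this contrast favours such extremes, and the combined-omission library is also the shallowest, so these shares are a description.

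The only gene called higher at a mean of 100 counts or more was a chaperone of the heat shock response. That gene, HSPH1, which encodes an HSP110 nucleotide exchange factor for HSP70, had 143 counts (324 CPM) in the combined omission and 166 counts (151 CPM) on normal food, a ratio of 2.15 (95% interval 1.71 to 2.71, log2 difference 1.09). It stood at 167 and 203 CPM in the methionine-free libraries and at 273 CPM without tryptophan and niacin, so the combined omission was highest and normal food lowest of the 5. CHORDC1, an HSP90 cochaperone, had 21 counts (47.6 CPM) against 18 (16.4 CPM), a ratio of 2.91 (1.48 to 5.80), with 45.5 CPM without tryptophan and niacin and 21.5 and 23.8 CPM without methionine. Both tumours on food without tryptophan and niacin thus had the higher levels of this gene, and the other 3 the lower ones. HSPA4L, another HSP110 gene that is not in the list and was picked after its values were seen, had 16 counts against 14 (ratio 2.85, 1.3 to 6.31).

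Of 25 chaperone genes measured, 2 were called higher and 0 lower, against 0.684% and 1.07% of all genes. Of the 25, 19 lay above 0, and the median log2 difference was 0.24. Over all genes 48.2% lay above 0 and the median was −0.01. The interval lay above 1 in 9 (36%, against 4.05% of all genes) and below 1 in 0 (against 4.03%). Many of these genes are well counted, and the shares of all genes are not matched for that. The 9 count HSPA1A and HSPA1B separately. HSPA8, the constitutive HSP70, stood at 2133 CPM against 1580.1 CPM (ratio 1.35, 1.25 to 1.46). STIP1, the adaptor between HSP70 and HSP90, stood at 338 against 222 CPM (1.52, 1.23 to 1.88), and DNAJA1, an HSP40 partner of HSP70, at 202 against 135 CPM (1.49, 1.13 to 1.95). The inducible HSP70 genes HSPA1A (354 against 238 CPM) and HSPA1B (386 against 255 CPM) had ratios of 1.49 and 1.52, but they are near-identical copies whose reads cannot be split with certainty, and count as 1 observation. HSPA5, the HSP70 of the endoplasmic reticulum, had a ratio of 1.35 (1.17 to 1.56) and HSP90AA1, an HSP90 gene, one of 1.19 (1.04 to 1.35). The abundant HSP90AB1 (1.08, 0.985 to 1.18) and the mitochondrial HSPD1 (1.07, 0.93 to 1.23) had intervals that include 1. So did HSF1, the transcription factor of the response, at 90.8 against 114 CPM (log2 difference −0.32), the lowest value of the list.

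The same list also stood above normal food in the other libraries. Its medians there were 0.13 and 0.43 without methionine and 0.16 without tryptophan and niacin. The summed level of the list was lowest on normal food, at 8847 CPM, against 10564 CPM in the combined omission. It was 9903 and 11828 CPM without methionine and 10143 CPM without tryptophan and niacin. Within the methionine-free pair 11 of 25 intervals lay above 1 (44%, against 11.7% of all genes in that pair) and 1 below (4%, against 10.7%). The median of that pair was 0.29. HSPA8 stood at 2189.5 CPM without tryptophan and niacin and at 2217 and 2968 CPM without methionine, so the combined omission was inside the range. HSPA1A and HSPA1B were highest in the combined omission and did not follow that order. A spread of this size between libraries of 1 diet was therefore measured for these genes, and its part in the difference from normal food was not tested.

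**Figure D2:**
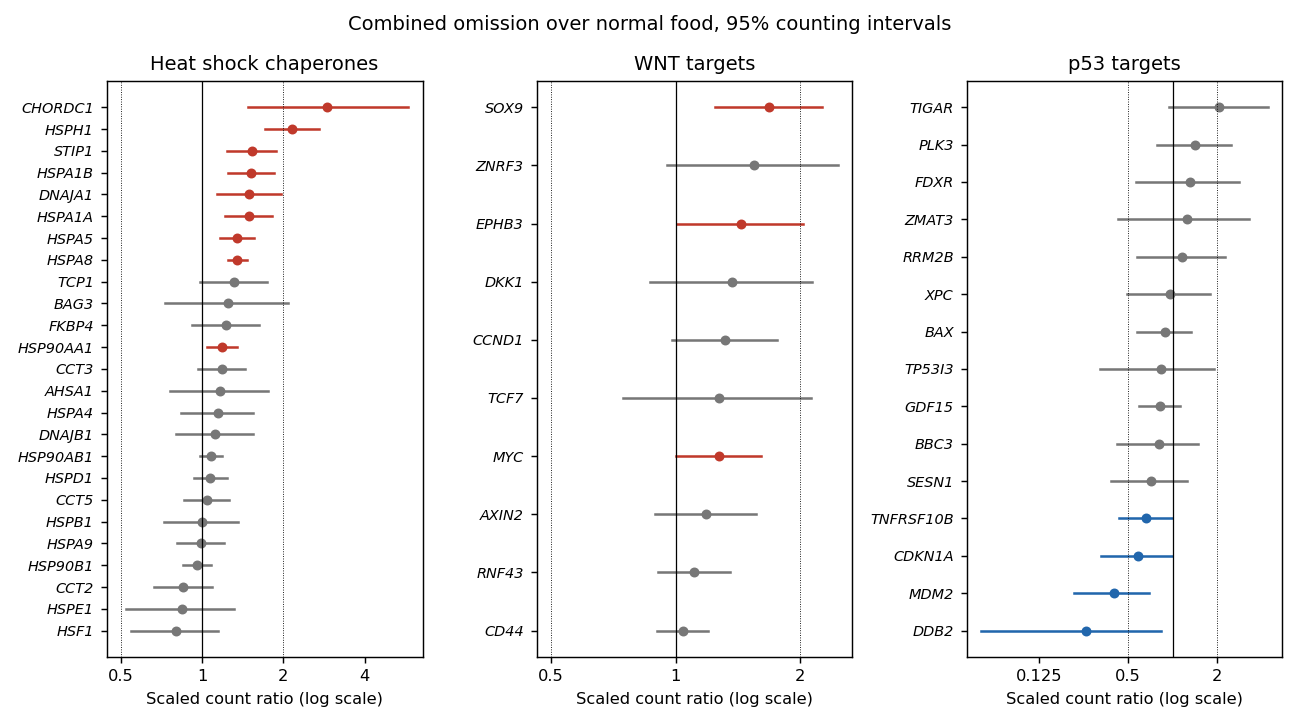
Scaled count ratio of the combined omission over normal food on a log axis, with 95% counting intervals, for 25 heat shock chaperone, 10 WNT target and 15 p53 target genes. Red marks intervals above 1, blue those below 1 and grey those that include 1; the solid line is 1 and the dotted lines are 2-fold. In the chaperone panel 9 intervals lie above 1 and 0 below, and in the p53 panel 4 lie below 1.

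Promoter sequences of 3 chaperone genes are shown because the heat shock factor HSF1 is known to bind GAA units paired with their reverse complement, and these genes differ in how many such pairs they hold. The sequences are RefSeq's, GRCh38.p14, 250 bases before to 50 after the annotated start, read along the gene's strand. Capitals mark the pairs GAANNTTC and TTCNNGAA, each its own reverse complement, so both strands are covered, and neighbouring pairs may share a unit.

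CHORDC1, chr11:90223000-90223299, minus strand: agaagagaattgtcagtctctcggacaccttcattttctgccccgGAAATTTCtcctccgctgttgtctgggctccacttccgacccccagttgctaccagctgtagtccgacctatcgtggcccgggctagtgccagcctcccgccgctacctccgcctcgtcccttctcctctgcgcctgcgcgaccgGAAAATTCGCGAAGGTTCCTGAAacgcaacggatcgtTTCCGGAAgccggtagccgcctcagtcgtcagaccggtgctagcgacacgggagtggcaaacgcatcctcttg
HSPA8, chr11:123062087-123062386, minus strand: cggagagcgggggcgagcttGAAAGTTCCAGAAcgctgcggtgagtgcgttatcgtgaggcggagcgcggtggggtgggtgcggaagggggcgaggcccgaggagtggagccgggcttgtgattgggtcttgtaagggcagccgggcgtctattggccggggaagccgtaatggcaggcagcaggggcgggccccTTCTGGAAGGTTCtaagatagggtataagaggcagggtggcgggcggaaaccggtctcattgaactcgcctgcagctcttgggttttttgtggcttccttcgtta
HSPH1, chr13:31162339-31162638, minus strand: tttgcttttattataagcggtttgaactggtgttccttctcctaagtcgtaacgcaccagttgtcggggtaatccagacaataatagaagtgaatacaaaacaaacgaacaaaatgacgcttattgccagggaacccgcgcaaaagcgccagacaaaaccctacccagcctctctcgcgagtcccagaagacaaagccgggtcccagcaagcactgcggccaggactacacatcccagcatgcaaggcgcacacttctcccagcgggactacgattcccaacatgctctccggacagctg

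The CHORDC1 window held 6 such pairs, 3 of them extended to 3 units in a row, and the HSPA8 window held 4 pairs with 2 such extensions. HSPH1, the best-counted gene of the list beyond 2-fold, held 0 in this window, which says only that these letters are not in it. A pair was present in 13.5% of the 35116 promoters in the table and in 9.68% of the 7447 measured genes matched by symbol, and 3 units in a row in 0.49% and 0.349%. Among 23 measured chaperone genes with a promoter 8 held a pair, 5 of the 9 with an interval above 1 and 3 of the 14 others. The 5 include HSPA1A and HSPA1B, near-identical copies that held 1 pair each and are counted separately here. For measured genes only the first promoter listed for each symbol was used, so any other start of a gene is not covered. A match of letters is a description and not a bound site.

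Beyond the chaperones, the 12 genes called higher whose interval lay farthest from 1 came from no single listed group. CDC42EP1, an effector of the GTPase CDC42 that shapes the actin skeleton, had 60 counts (136 CPM) against 65 (59.1 CPM), a ratio of 2.30 (1.59 to 3.32). TNS4, a tensin that links integrins to signalling, had 51 counts (116 CPM) against 56 (50.9 CPM), a ratio of 2.27 (1.52 to 3.38). For both the combined omission was highest and normal food lowest of the 5 libraries, and for TNS4 the level without tryptophan and niacin, 105 CPM, was near that of the combined omission while those without methionine, 52.0 and 61.9 CPM, were near normal food. GAS2L1, which crosslinks actin and microtubules, showed the same placing at lower depth, with 43.1 CPM in the combined omission, 42.3 without tryptophan and niacin, 16.1 and 20.6 without methionine and 10.0 on normal food. Its ratio was 4.31 (1.95 to 10.0) on 19 and 11 counts.

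PDCD11, a ribosomal RNA processing factor, had 71 counts against 86 (ratio 2.06, 1.48 to 2.85), and SAFB2, a nuclear matrix RNA-binding protein, 52 against 58 (2.24, 1.51 to 3.31). Their methionine-free libraries differed from each other, at 78.8 and 50.8 CPM for PDCD11 and 68.1 and 33.3 CPM for SAFB2, and the combined omission was above both at 161 and 118 CPM. With a larger prior count of 5 PDCD11 fell just short of 2-fold (0.98). The remaining genes rest on 8 to 21 counts in each library: SLC36A1, a proton-coupled amino acid transporter of lysosomes (ratio 3.99), PTPN7, a phosphatase of MAP kinases (3.63), RIOK1, a kinase of the small ribosomal subunit's maturation (3.08), MUL1, a mitochondrial ubiquitin ligase (2.91), and CBX6, a Polycomb protein (3.74, tied with NDNL2). Their lower interval limits ran down to 1.41 for CBX6.

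In some genes called higher it was the normal library that stood apart from the rest. CDCA5, which holds sister chromatids together, stood at 46.4 CPM on normal food and at 89.4 to 108 CPM in the other 4, with 99.8 CPM in the combined omission. EFNB2, an ephrin ligand, stood at 45.5 CPM on normal food and at 61.9 to 114 CPM in the other 4. CXCR4, the chemokine receptor of metastasis, showed the opposite placing, at 97.6 CPM in the combined omission and 25.1 to 47.6 CPM in the other 4 (43 counts against 52 on normal food, ratio 2.06, 1.35 to 3.15). These 3 genes were chosen after their values were seen, and CXCR4 lay at the 2-fold limit (log2 difference 1.00).

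**Figure D3:**
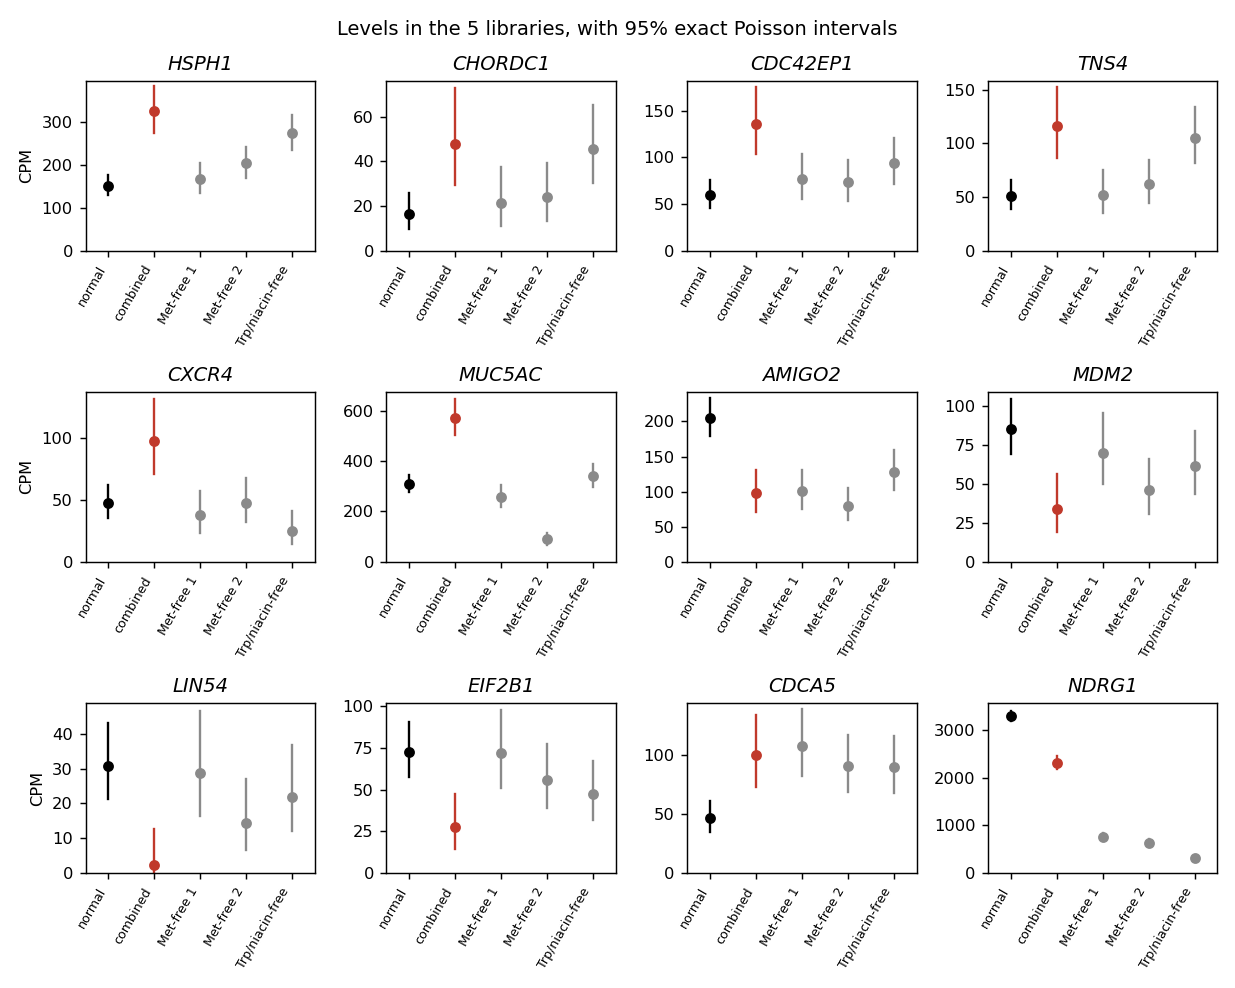
CPM of 12 genes in the 5 libraries, 1 library per point, with 95% exact Poisson intervals for counting error, on linear axes from 0. Black is normal food, red the combined omission, grey the methionine-free and the tryptophan/niacin-free libraries. HSPH1 and CXCR4 are highest in the combined omission, AMIGO2 and CDCA5 stand apart in the normal library, and NDRG1 is high in the normal and combined-omission libraries and low in the other 3.

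Among the genes called lower, AMIGO2, a cell adhesion protein, was the best counted. It had 43 counts (97.6 CPM) in the combined omission and 225 counts (205 CPM) on normal food, 2.1-fold lower (1.51 to 2.98, log2 difference −1.05). The methionine-free libraries were at 100 and 79.3 CPM and the tryptophan/niacin-free one at 129 CPM, so it was the normal tumour that stood above the other 4. MDM2, the ubiquitin ligase that degrades p53, had 15 counts (34.0 CPM) against 94 (85.5 CPM), 2.51-fold lower (1.45 to 4.66), and EIF2B1, a subunit of the exchange factor that recharges the initiation factor eIF2, 12 counts (27.2 CPM) against 80 (72.7 CPM), 2.67-fold lower (1.45 to 5.39). For MDM2 and EIF2B1 the combined omission was lowest and normal food highest of the 5 libraries, with the others at 46.0 to 69.9 and 47.1 to 71.7 CPM.

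The genes with the lowest values rest on 0 to 2 counts in the combined-omission library. LIN54, a DNA-binding subunit of the DREAM cell cycle complex, had 1 count against 34, 13.6-fold lower with an interval from 2.29 to 554. INTS2, an Integrator subunit that helps end transcription of small nuclear RNAs, had 0 counts where normal food had 22. Taken at the floor of 3 counts in the combined-omission library, it was at least 2.94-fold lower. That bound leaves out the counting error of the 22 counts, and the interval used for the other genes begins at 2.19-fold. INTS2 is the only called gene at 0 in either library. LIN54 and INTS2 are also the only 2 called genes whose interval lies wholly past 2-fold. C12orf4, C17orf58, PIGX and ARL6IP6 had 1 or 2 counts against 24 to 30. SPIDR, which acts in homologous recombination, had 8 against 62 (3.11-fold, 1.48 to 7.51), FBXO22, a ubiquitin ligase subunit, 5 against 46 (3.69-fold, 1.47 to 11.9), LIN7C, a polarity scaffold, 6 against 51 (3.41-fold, 1.46 to 9.71) and RAPGEF5, a Rap exchange factor, 7 against 56 (3.21-fold, 1.46 to 8.34). In all, 36 of the 103 genes called lower had 1 to 3 counts in the combined omission, where the size of a fold is poorly known.

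The genes that handle the omitted nutrients mostly lay close to their level on normal food. Of 17 methionine cycle and salvage genes measured 0 were called higher and 1 lower, against 0.684% and 1.07% of all genes. In this list 10 lay above 0, and the median was 0.10, which turned to −0.11 with no filter on low counts. The lower one was APIP, an enzyme of methionine salvage, with 4 counts (9.08 CPM) against 32 (29.1 CPM), 3.21-fold lower (1.14 to 12.5), where the other 3 libraries stood at 32.3 to 41.2 CPM. AHCYL1, a relative of the enzyme that clears S-adenosylhomocysteine, was 1.41-fold lower (1.04 to 1.93), at 127 against 179 CPM. The best-counted members had tight ratios near 1: MAT2A, which makes S-adenosylmethionine, stood at 508 against 475 CPM (1.07, 0.91 to 1.25) and AHCY, which clears S-adenosylhomocysteine, at 349 against 341 CPM (1.02, 0.844 to 1.24). The methionine synthase MTR had 27 against 60 counts (1.12, 0.685 to 1.80). MTAP, which recovers methionine from methylthioadenosine, stood at 97.6 against 127 CPM (log2 difference −0.37, ratio interval 0.532 to 1.09).

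Of 34 NAD, nicotinamide and tryptophan genes 15 reached the minimum count, and the median was −0.00. Of the 15, 0 were called, against 0.684% and 1.07% of all genes called higher and lower. NNMT, the enzyme that methylates nicotinamide with S-adenosylmethionine, was below the minimum with 1 count against 9, and IDO1 and TDO2, which open the tryptophan ring, were at 0 in both libraries. AFMID, which converts formylkynurenine on the route from tryptophan to NAD, had 26 counts (59.0 CPM) against 31 (28.2 CPM), a ratio of 2.09 (1.19 to 3.64, log2 difference 0.99). The other 3 libraries stood at 22.2 to 31.4 CPM, so the combined omission alone was above 50 CPM, and AFMID passed 2-fold when the scaling used these 2 libraries only. QPRT, which makes nicotinic acid mononucleotide from the tryptophan product quinolinate, stood at 56.7 against 37.3 CPM (1.52, 0.887 to 2.56). NAMPT, which salvages nicotinamide, stood at 70.3 against 100 CPM (0.703, 0.456 to 1.06) and NAPRT, which uses nicotinic acid, at 234 against 274 CPM (0.854, 0.676 to 1.07). All 3 intervals include 1. WARS, which charges tRNA with tryptophan, had a ratio of 1.16 (0.75 to 1.77).

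Targets of ATF4 were not higher as a group: of 25 measured 8 lay above 0 and the median was −0.16. Of the 25, 0 were called, against 0.684% and 1.07% of all genes called higher and lower. The interval lay above 1 in 1 (4%, against 4.05% of all genes) and below 1 in 3 (12%, against 4.03%). The list also leaned lower than normal food in the other libraries, with medians of −0.43 and −0.33 without methionine and −0.30 without tryptophan and niacin. PYCR1, which makes proline, was the only member with an interval above 1, at 159 against 97.3 CPM (ratio 1.63, 1.19 to 2.23). MTHFD2, a mitochondrial folate enzyme, was 1.68-fold lower (1.13 to 2.57), at 70.3 CPM against 118 CPM on normal food and 108 to 116 CPM in the other 3 libraries. ATF4 itself stood at 275 against 344 CPM, 1.25-fold lower (1.02 to 1.55), and VEGFA is described below with hypoxia genes. ASNS, the asparagine synthetase often used to read this response, had a ratio of 1.05 (0.645 to 1.68), and TRIB3, a pseudokinase of the same response, one of 0.729 (0.479 to 1.08).

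Among 14 amino acid transporters 1 was called higher (SLC36A1, above) and 0 lower, against 0.684% and 1.07% of all genes. Of the 14, 9 lay above 0, the median was 0.17, and 4 intervals lay above 1 (28.6%, against 4.05% of all genes) and 0 below. SLC1A5, a glutamine transporter, stood at 601 against 426 CPM (1.41, 1.21 to 1.64), and the other 3 libraries were at 398 to 470 CPM. SLC7A5, the light chain of the LAT1 transporter that carries methionine and tryptophan, stood at 238 against 171 CPM (1.39, 1.09 to 1.78), with 231 CPM without tryptophan and niacin. Its heavy chain SLC3A2 stood at 209 against 228 CPM (0.915, 0.712 to 1.17), an interval that includes 1 and overlaps that of SLC7A5. Within the methionine-free pair 3 of 13 transporters had an interval below 1 and 0 above. Over all genes in that pair 10.7% lay below and 11.7% above.

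**Figure D4:**
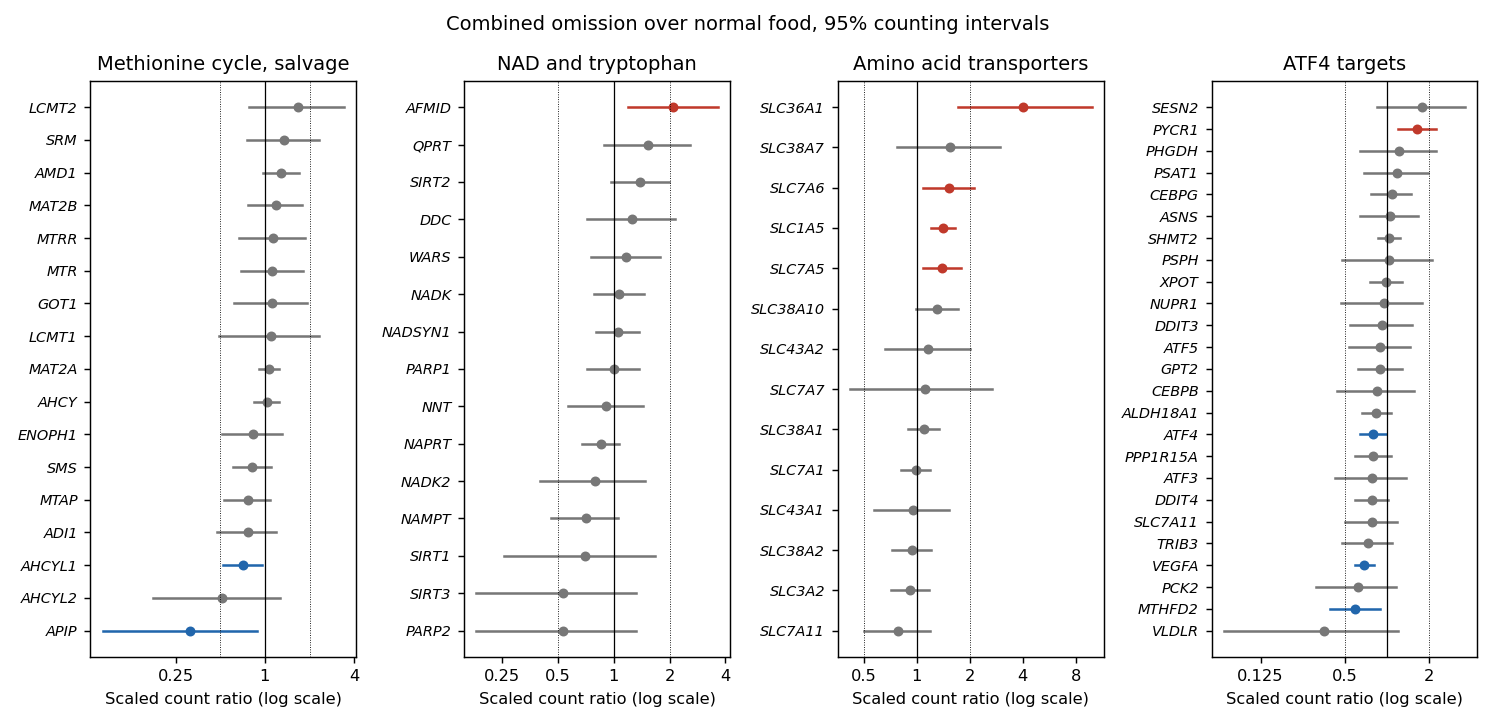
Scaled count ratio of the combined omission over normal food on a log axis, with 95% counting intervals, for 17 methionine cycle and salvage, 15 NAD and tryptophan, 14 amino acid transporter and 25 ATF4 target genes. Colours and lines are as in the plot of chaperone ratios. Most intervals include 1, with APIP and AHCYL1 below it in the first panel and SLC36A1, SLC7A6, SLC1A5 and SLC7A5 above it in the transporter panel.

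Most genes induced by low oxygen lay slightly lower in the combined omission. Of 24 measured 0 passed 2-fold, 20 lay below 0, the median was −0.29, and 6 intervals lay below 1 (25%, against 4.03% of all genes) and 0 above. NDRG1, a stress gene induced by hypoxia, had 1023 counts (2321 CPM) against 3633 (3303 CPM), 1.42-fold lower (1.33 to 1.53). VEGFA, the angiogenic growth factor, stood at 463 against 672 CPM (1.45-fold lower, 1.24 to 1.70) and SLC2A1, the glucose transporter GLUT1, at 1468 against 1917 CPM (1.31-fold lower, 1.20 to 1.43). ADM, BNIP3L and KDM3A, which encode adrenomedullin, a mitophagy receptor and a histone demethylase, were 1.58-, 1.68- and 1.35-fold lower. For these 6 genes the order of the libraries was the same at the top, with normal food highest, the combined omission next, and the other 3 below. NDRG1 stood at 763, 636 and 307 CPM in those 3 and VEGFA at 176, 152 and 146 CPM. CA9, the hypoxia-induced carbonic anhydrase, stood at 324 against 370 CPM (0.877, 0.720 to 1.06), and PFKFB4, an activator of glycolysis, at 59.0 against 40.0 CPM (1.47, 0.872 to 2.45), both with intervals that include 1.

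Glycolytic enzymes followed with a smaller step: 17 of 21 lay below 0, the median was −0.16, and 4 intervals lay below 1 (19%, against 4.03% of all genes) and 0 above. LDHA, which makes lactate, stood at 1922 against 2320.1 CPM (1.21-fold lower, 1.12 to 1.31) and ALDOA, an aldolase, at 1511 against 1807 CPM (1.20-fold lower, 1.09 to 1.31). PGK1 and TPI1 were 1.22- and 1.14-fold lower. GAPDH (0.983, 0.929 to 1.04) and ENO1 (1.01, 0.936 to 1.09), also among the most abundant enzymes of the path, had tight intervals around 1. In the methionine-free pair 8 of 21 glycolytic genes and 1 of 22 hypoxia genes had an interval above 1, and 1 and 2 had one below. Over all genes in that pair 11.7% lay above and 10.7% below. Other genes that were well counted and lower were picked after their values were seen. EFNA1, an ephrin ligand, had 45 counts (102 CPM) against 224 (204 CPM), 1.99-fold lower (1.44 to 2.81), with 37.6 to 84.2 CPM in the other 3 libraries. SERINC1, a membrane protein, stood at 86.2 against 166 CPM (1.93-fold, 1.35 to 2.81), and FTH1, the ferritin heavy chain that stores iron, at 1956 against 2560.1 CPM (1.31-fold, 1.21 to 1.41).

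Targets of p53, the stress-activated tumour suppressor, leaned lower. Of 15 measured 2 were called lower and 0 higher, 10 lay below 0, the median was −0.23, and 4 intervals lay below 1 (26.7%). Over all genes 1.07% were called lower, 4.03% had an interval below 1 and 48.2% lay above 0. The list also leaned lower than normal food in the other libraries. Its medians there were −0.42 and −0.26 without methionine and −0.37 without tryptophan and niacin. MDM2 is given above. DDB2, which recognises ultraviolet damage in DNA, had 3 counts (6.81 CPM) against 29 (26.4 CPM), 3.87-fold lower (1.20 to 19.9). CDKN1A, the cell cycle inhibitor p21, stood at 40.8 against 70.0 CPM (1.71-fold lower, 1.02 to 3.04), and TNFRSF10B, a death receptor, at 72.6 against 109 CPM (1.5-fold, 1.01 to 2.29). For both, normal food was the highest of the 5 libraries and methionine-free library 2 the lowest, at 38.1 and 63.4 CPM. BAX (0.887, 0.573 to 1.34) and GDF15 (0.822, 0.591 to 1.13), a cell death effector and a stress cytokine, had intervals that include 1. As background, HT-29 is known to carry a mutant p53.

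WNT target genes, which are driven by beta-catenin in colon epithelium, leaned higher. All 10 that were measured lay above 0, 0 were called, the median was 0.37, and 3 intervals lay above 1 (30%, against 4.05% of all genes). A further 12 of the 22 listed did not reach the minimum count. SOX9, a transcription factor of the crypt base, had 78 counts (177 CPM) against 116 (105 CPM), a ratio of 1.68 (1.24 to 2.26). EPHB3, a receptor that positions crypt cells, stood at 120 against 83.6 CPM (1.44, 1.01 to 2.04), and MYC, the growth regulator, at 252 against 198 CPM, with a lower limit barely above 1. AXIN2, the feedback inhibitor of the pathway, stood at 172 against 145 CPM (1.19, 0.89 to 1.57), and CD44, a hyaluronan receptor, at 651 against 626 CPM (1.04, 0.903 to 1.19). In the methionine-free pair 3 of these 10 genes had an interval below 1 and 0 above, against 10.7% and 11.7% of all genes in that pair.

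Mucin and goblet cell genes held well-counted differences in both directions. Of 21 measured 0 were called, 13 lay above 0, the median was 0.16, and 5 intervals lay above 1 (23.8%) and 2 below (9.52%). Over all genes 4.05% of intervals lay above 1 and 4.03% below. MUC5AC, a gel-forming mucin of the stomach that colon tumours can express, had 251 counts (570 CPM) against 340 (309 CPM), a ratio of 1.84 (1.56 to 2.18). FCGBP, a mucus protein of goblet cells, stood at 497 against 306 CPM (1.62, 1.36 to 1.93), and MUC2, the main mucin of the colon, at 347 against 238 CPM (1.46, 1.19 to 1.79). For these 3 genes the combined omission was the highest of the 5 libraries. The methionine-free libraries differed from each other more, at 258 and 88.8 CPM for MUC5AC, 240 and 99.9 CPM for FCGBP and 125 and 36.5 CPM for MUC2. Lower were MUC13, a membrane mucin, at 588 against 775 CPM (1.32-fold, 1.15 to 1.52), and LYZ, which encodes lysozyme and is also a myeloid marker, at 1988 against 2338 CPM (1.18-fold, 1.09 to 1.27). In the methionine-free pair 6 of 18 such genes had an interval above 1 and 7 below, against 11.7% and 10.7% of all genes in that pair.

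Colonocyte genes showed no common direction: 8 of 22 lay above 0, the median was −0.09, and 1 was called lower, PHGR1, a small intestinal protein, with 4 counts against 29 (2.90-fold, 1.02 to 11.4). Over all genes 1.07% were called lower. KRT18 stood higher (ratio 1.19, 1.10 to 1.28), and its fellow keratins KRT19 (1.24-fold lower, 1.14 to 1.37) and KRT20 (1.23-fold lower, 1.08 to 1.4) lower.

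Of the growth and protein synthesis groups, ribosome biogenesis genes had 29 of 44 above 0 (65.9%, against 48.2% of all genes), a median of 0.23 and 0 calls. Their 3 intervals above 1 (6.82%) and 1 below (2.27%) were near the shares over all genes, 4.05% and 4.03%. NIP7, a factor of the large subunit, had 18 counts (40.8 CPM) against 21 (19.1 CPM), a ratio of 2.14 (1.07 to 4.22), with 48.6 to 76.1 CPM in the other 3 libraries, so that normal food was the low library. NOP58, a core protein of methylation guide particles, was 1.48-fold lower, at 74.9 against 111 CPM. The 79 genes of cytosolic ribosomal proteins centred on −0.05. They had 5 intervals above 1 (6.33%, against 4.05% of all genes) and 11 below (13.9%, against 4.03%). These genes are well counted, so their intervals are narrow. RPL28 had the highest value (ratio 1.44, 1.28 to 1.62) and RPL14 the lowest (1.27-fold lower, 1.05 to 1.54). Between the methionine-free libraries 77 of the same 79 had an interval above 1 (97.5%, against 11.7% of all genes in that pair). Mitochondrial ribosomal proteins (median −0.04 over 68), respiratory chain genes (−0.00 over 75), proliferation genes (−0.01 over 36) and proteasome genes (0.04 over 36) lay near 0. Genes of mTORC1 and its sensors had 0 calls over 31 and a median of 0.12, with NPRL3, part of the GATOR1 complex that restrains mTORC1, at 56.7 against 27.3 CPM (2.08, 1.17 to 3.66). Aminoacyl-tRNA synthetase genes had 0 calls over 20 and a median of −0.14.

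The unfolded protein response list held 1 gene called higher, SDF2L1, a chaperone partner of the endoplasmic reticulum, with 11 counts against 9 (ratio 3.05, 1.15 to 8.33), and 12 of 20 above 0 with a median of 0.14. Its best-counted member with an interval above 1, HSPA5, is also in the chaperone list. Over all genes 0.684% were called higher. Autophagy genes had 2 called lower, 12 of 34 above 0 and a median of −0.13, with 5 intervals below 1 (14.7%, against 4.03% of all genes) and 2 above (5.88%, against 4.05%), and 1.07% of all genes were called lower. ATG12, the conjugate that drives membrane lipidation, had 11 counts (25 CPM) against 70 (63.6 CPM), 2.55-fold lower (1.34 to 5.34), and was lowest in the combined omission among the 5 libraries. WIPI1, which binds the forming autophagosome, had 1 count against 21. SQSTM1, an autophagy receptor counted better, stood at 486 against 511 CPM (0.95, 0.808 to 1.11).

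**Figure D5:**
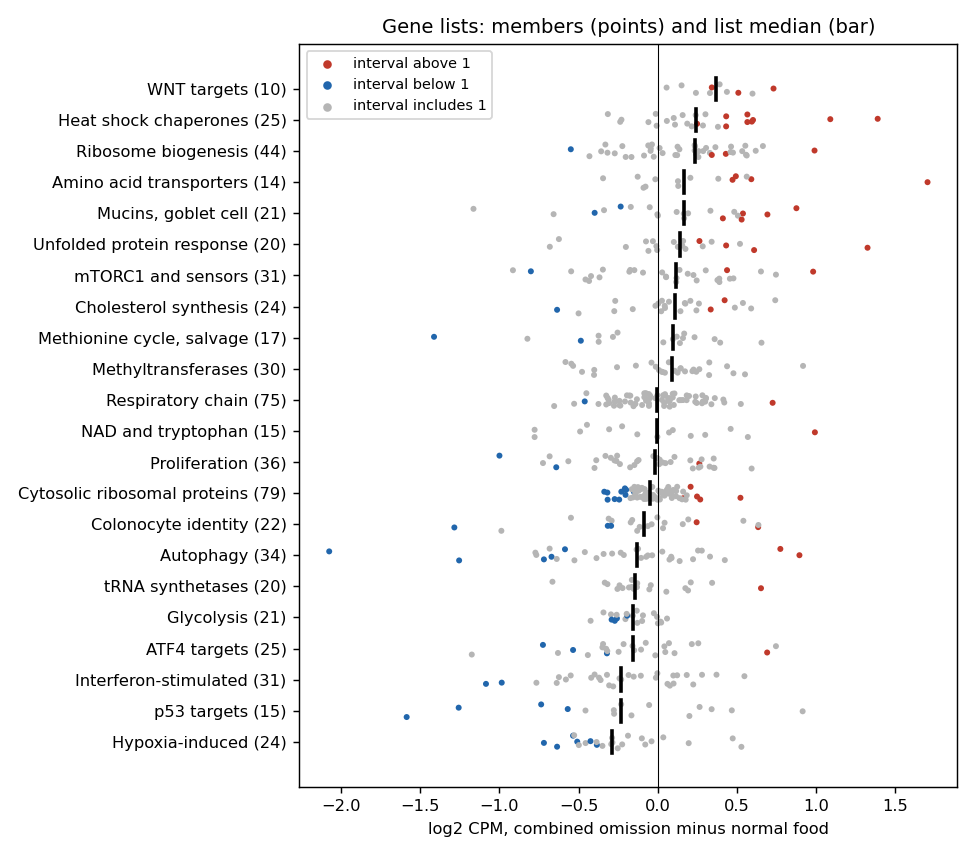
Log2 difference in CPM (combined omission minus normal food) of the measured members of 22 gene lists, with the number of members in brackets and a bar at each list's median. Red points have a counting interval above 1, blue points one below 1 and grey points one that includes 1. WNT targets have the highest median (0.37) and hypoxia-induced genes the lowest (−0.29) of the lists drawn.

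Lipid synthesis genes also held well-counted differences. FASN, the fatty acid synthase, had 352 counts (799 CPM) against 636 (578 CPM), a ratio of 1.38 (1.21 to 1.58). The other 3 libraries were lower, at 453 and 243 CPM without methionine and 525 CPM without tryptophan and niacin. In the methionine-free pair 4 of 11 fatty acid synthesis genes had an interval below 1 and 0 above. Over all genes in that pair 10.7% lay below and 11.7% above. Cholesterol synthesis genes lay above 0 in 18 of 24 with a median of 0.11 and 0 calls. INSIG1, which restrains the same path, stood at 70.3 against 111 CPM (1.58-fold lower, 1.06 to 2.42). Methyltransferase genes, which use S-adenosylmethionine, had 0 calls and 0 intervals on either side of 1 over 30 genes, with a median of 0.09.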

How the data were processed

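The series holds 5 RNA libraries from tumours, and the 2 libraries compared here were read from the deposited tables. Those tables hold expected counts per gene symbol, made by the authors: 15.2% to 17.6% of values above 0 carry decimals, and near-identical genes share equal decimals, so reads with several positions were split. Per the submitters' processing notes the build was hg19 and the tools were featureCounts, Subread 2.0.0, SAMtools 0.1.18, Bowtie2 2.2.8 and TopHat2 2.1.1. Per the labels' protocols the libraries were stranded mRNA libraries. For the annotation, the strand setting and any removal of mouse reads the step is not given in the sources used here, so overlapping genes on opposite strands are uncertain and mouse reads may be counted under human symbols.

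Expected counts were rounded to whole numbers. TMM factors (edgeR 4.0.16 in R 4.3.3) were computed over the 5 libraries on genes kept by filterByExpr, and log2 CPM used a prior count of 2. The size rule (at least 2-fold, and a 95% exact conditional binomial interval, from Clopper-Pearson limits, that excludes 1) compares 2 libraries, not 2 diets. The number that counting error alone would call was summed from exact binomial probabilities. PCR copies cannot be recognised, so intervals and floors cover counting error only. The calculation was tested on simulated data. Gene lists (36 of pathways with at least 1 measured gene, and 8 of cell markers), the comparison itself and the members were chosen with earlier results of these data known. Named genes were the 12 called genes in each direction whose interval limit lay farthest from 1, called list members and called genes at 0. The most abundant and most extreme members of each list and members of the methionine, NAD and ATF4 lists were also named. So were NEAT1 and MALAT1, as nuclear RNAs. Any other gene named was picked after its values were seen, including list members whose interval excludes 1. Alternatives were other scalings (TMM over the 2 libraries, total counts, DESeq2 1.42.0 size factors), count minimums, prior counts, folds, a 99% interval, decimals dropped, and, added after the data were seen, the interval with no minimum fold. Promoters came from RefSeq (GRCh38.p14), and no hg19 coordinate is given.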

Additional observations from a re-analysis of the deposited data

How the results depend on the processing

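The counts of 66 higher and 103 lower genes depend on the rule. They became 17 and 55 with a mean of at least 20 counts, 239 and 255 at 1.5-fold, 3 and 30 at 3-fold, 29 and 35 with a 99% interval, and 391 and 389 with the interval alone, an alternative added after the data were seen. A prior count of 5 left 27 higher, and no filter gave 137 higher. Each of these settings admits more or fewer genes by construction. The other scalings moved the counts by little (66 to 68 higher and 98 lower), all 98 of them among the 103, and moved the median of all genes by at most 0.0074. No result changed direction past its threshold, and under a prior count of 5 the named genes PDCD11, OAS2, FOSL1, CDCA5, CXCR4 and EFNB2 fell short of 2-fold. For the 36 lists with at least 3 measured genes, no scaling, count minimum or prior tried moved the median out of the middle range of its members' values, and 5 medians, all within 0.01 of 0, changed sign under another scaling. Under any of these alternatives 8 medians changed sign, among them that of the methionine cycle list, 0.10 as reported and −0.11 with no filter on low counts. With 1 count worth 2.27 CPM in the combined omission, folds of thinly counted genes are known only within wide limits, as for LIN54 (2.29 to 554). No paired analysis was possible because each diet compared has 1 library. For the same reason no replicate could be left out.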

Other observations

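Interferon-stimulated genes had 10 of 31 above 0 (32.3%, against 48.2% of all genes), a median of −0.23 and 1 called lower (1.07% of all genes were). Their 2 intervals below 1 (6.45%) were near the 4.03% of all genes. The gene called, OAS2, an antiviral sensor of double-stranded RNA, had 8 counts against 46, 2.30-fold lower (1.08 to 5.65), and lay below 36.1 to 64.5 CPM in the other libraries. PARP9, another gene of the response, had 20 counts against 102 (log2 difference −0.99), while ISG15 stood at 56.7 against 53.6 CPM. Immediate early and MAP kinase genes had 10 of 30 above 0, a median of −0.18, and 4 intervals above 1 (13.3%, against 4.05% of all genes) and 1 below. FOSL1, an AP-1 subunit, was called higher with 22 counts against 25 (ratio 2.2, 1.18 to 4.06), and JUN, its partner, was 1.3-fold lower (1.02 to 1.67).

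The nuclear noncoding RNAs NEAT1 and MALAT1 were 1.21-fold (1.07 to 1.37) and 1.23-fold (1.03 to 1.47) lower, and 9 of 10 such RNAs lay below 0 with a median of −0.18. In 4 equal groups by length of the longest transcript, genes had medians from −0.02 to 0.00, with 37 to 43 called in each. Of 12 polyamine genes measured 6 lay above 0 and 6 below, with a median of −0.00. The interval lay above 1 in 0 and below 1 in 2 (16.7%, against 4.03% of all genes), SAT1 and OAZ2. SAT1, which acetylates polyamines for export, had 30 counts against 148, 1.98-fold lower (1.33 to 3.03). OAZ2, an inhibitor of polyamine synthesis, had 16 against 77 (log2 difference −0.89). ENG, an endothelial marker, was called higher with 21 counts against 22 (ratio 2.38, 1.25 to 4.54), and ESAM, the other endothelial marker measured, had 15 against 44 (log2 difference −0.22). The other 10 of 12 endothelial markers were at 0 in the combined omission.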
